A study of Homo sapiens with 18 samples.

Results

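The account covers 10 genes of insulin and insulin-like growth factor (IGF) signalling: IGFBP1, IGFBP2, IGFBP3 and IGFBP4, which encode secreted IGF-binding proteins; INSR and IGF1R, the receptors; IRS1 and IRS2, the receptor substrates; GRB10, an adaptor that restrains the receptors; and PIK3R1, a regulatory subunit of phosphoinositide 3-kinase (PI3K). They were chosen by gene symbol, with earlier results of these data known. All 10 were present among the 14888 genes of the authors' deposited table for H33 against HepG2 and the 14896 of that for H12 against HepG2. The study sequenced poly-A RNA from 18 libraries, 6 each of H33, H12 and HepG2. H33 and H12 are clones of HepG2, a human hepatoblastoma line, with the genotype DNAJB1-PRKACA, the fusion of a heat shock co-chaperone gene with the gene for a catalytic subunit of protein kinase A that defines fibrolamellar carcinoma; HepG2 has the genotype WT. All 3 lines were kept in the same serum-containing medium and the labels name no drug. Each fusion line is 1 clone, so a fold change covers every difference between that clone and HepG2, and what drives the fusion is not given in the sources used here. Separate cultures are not named for the replicates, and p-values therefore reflect no more than the scatter among the libraries at hand, which may be technical.

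Insulin and the IGFs bind INSR and IGF1R, which phosphorylate IRS1 and IRS2; these recruit PI3K through PIK3R1 and its relatives, and PI3K activates the kinase AKT, which among other actions keeps FOXO transcription factors out of the nucleus. IGF-binding proteins hold IGFs outside the cell and set how much reaches the receptors. The liver is the main source of circulating IGF1, and hepatocytes make IGFBP1, a gene that insulin represses and that is known as a FOXO target.

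The deposited values are 1 row per gene and comparison, with no values per library, so the depth of each library is unknown and no SD could be given. A log2 fold change is that of the clone over HepG2, its standard error (SE) is implied by the change and its likelihood ratio, and a level is implied by the fold change and the mean CPM (read counts scaled to the size of the library). Fusion-gene labels were checked through PRKACA, which stood in the authors' deposited tables at 2.15 (SE 0.03) in H33 and 2.07 (SE 0.14) in H12, and DNAJB1, which stood at -0.20 (SE 0.04) and -0.25 (SE 0.13); these values do not separate the fusion from the intact genes. The hepatoblastoma label was checked with 12 hepatocyte and hepatoblast markers, all listed and all past the threshold as lower in both clones, with a summed implied level of 115 CPM in H33 and 964 CPM in H12, against 59489 CPM in HepG2 (in the H33 table). All 6 listed neuroendocrine markers of 8 were higher in both clones. Of 7 cholangiocyte markers, 2 were higher and 2 lower in H33, and 1 higher and 2 lower in H12, with sums of 265 CPM in H33 and 266 CPM in H12, against 377 CPM in HepG2 (in the H33 table). Of 8 fibroblast and stellate cell markers, 5 were listed: with RGS5 set aside, 2 were higher and 2 lower in H33, and 1 higher, 2 lower and 1 not past the threshold in H12, with sums of 19.0 CPM in H33 and 17.3 CPM in H12, against 52.2 CPM in HepG2. RGS5, a pericyte marker, has 2 rows under its symbol in the authors' deposited tables, both higher in both clones, the more abundant with 372 CPM in H33 and 269 CPM in H12, against 2.56 CPM in HepG2. The 1 listed endothelial marker of 7 was lower in both clones, and of 8 leukocyte markers 1 was higher and 3 lower in both, with sums of 183 CPM in H33 and 188 CPM in H12, against 3198 CPM in HepG2. LYZ alone gave 3130 CPM of the HepG2 sum. CD68 gave 178 CPM of the sum in H33 and 136 CPM of that in H12. Defining genes among the markers, PTPRC and CD3E of leukocytes and PECAM1 and VWF of endothelium, were not listed for either clone. The same holds for CHGA and PCSK1 of the neuroendocrine markers and KRT7 of the cholangiocyte markers. The part of these shifts in the results below was not tested.

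Of the 10 members, 9 passed an adjusted p of 0.05 in each clone, 2 higher and 7 lower, while 89.6% of all genes did so in H33 and 86.0% in H12. The share of members called is thus near that of all genes and is no result about them. Higher calls made up 44.2% of all genes in H33 and 41.8% in H12, and lower calls 45.3% and 44.3%. The counts given by list below are to be read beside these shares and are no result by themselves. In both clones 8 members were called and had changed by 1 log2 unit or more, against 44.5% of all genes in H33 and 44.1% in H12. The median absolute log2 fold change of the members was 2.24 in H33 and 1.72 in H12, beside 0.84 and 0.83 for all listed genes. The members' median with its sign was -2.00 in H33 and -1.53 in H12, beside medians of -0.02 and -0.03. Because the members were chosen with earlier results of these data known, these contrasts with all genes are no test of the pathway.

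**Figure D1:**
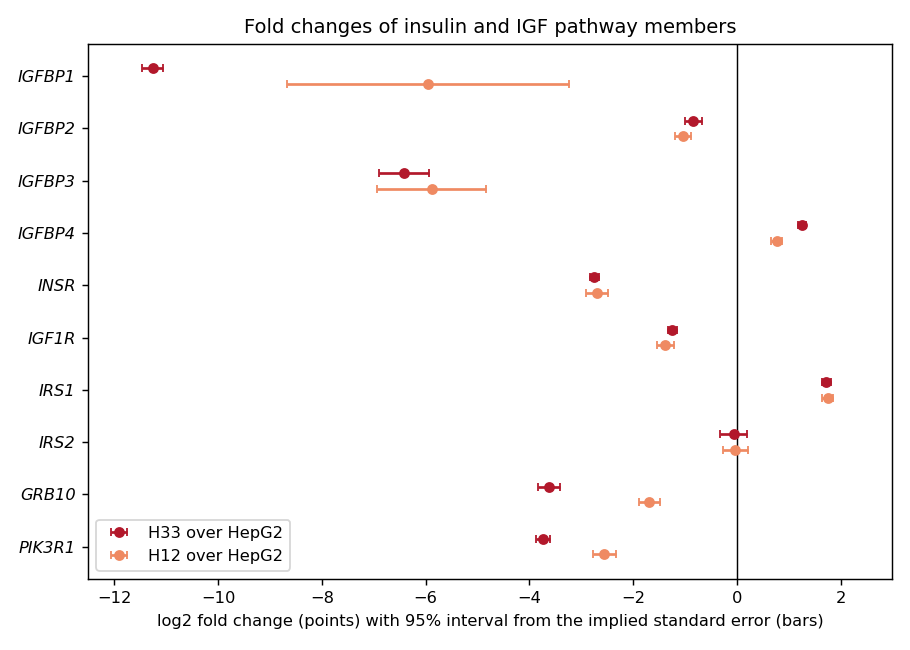
Log2 fold change of each member in H33 over HepG2 (dark red) and H12 over HepG2 (orange), with bars for the 95% interval from the implied SE. IGFBP4 and IRS1 lie to the right of 0 in both clones, IRS2 lies at 0, and the other 7 lie to the left; the interval of IGFBP1 in H12 runs from -8.67 to -3.23.

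IGFBP1 RNA was nearly lost from both clones, and IGFBP3 RNA fell with it. IGFBP1 (ENSG00000146678, chr7:45888357-45893668, plus strand, GRCh38), the acutely regulated binding protein of hepatocytes, had an implied level of 0.544 CPM in H33 and 21.7 CPM in H12, against 1342 CPM in HepG2. HepG2 thus lay far above both clones, while the H12 level carries a limit given below. Its log2 fold change over HepG2 was -11.26 in H33 in the authors' deposited table (SE 0.10, adjusted p listed as 0), which leaves 0.0407% of the HepG2 level and ranks 34th by size among all listed genes. In the authors' deposited table for H12 it was -5.95 (SE 1.39, adjusted p = 2.47e-05), or 1.61% of the HepG2 level. That call was lost when p-values were adjusted by Bonferroni (adjusted p = 0.265). In bulk RNA, fewer expressing cells and less RNA per cell cannot be told apart.

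IGFBP3 (ENSG00000146674, chr7:45912245-45921874, minus strand), the main IGF carrier of blood plasma, is the chromosomal neighbour of IGFBP1: their 3′ ends face each other across 18577 bases. Its implied level was 0.183 CPM in H33 and 0.270 CPM in H12, against 15.8 CPM in HepG2. The authors' deposited tables gave log2 fold changes of -6.41 (SE 0.24, adjusted p = 3.18e-151) in H33 and -5.88 (SE 0.54, adjusted p = 1.60e-27) in H12, or 1.17% and 1.70% of the HepG2 level. TMEM219, which encodes a cell-surface receptor for IGFBP3, stood at -1.12 (SE 0.05) in H33 and -1.16 (SE 0.06) in H12 in the authors' deposited tables, past the threshold as lower in both.

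The H12 values of IGFBP1 and IGFBP3 lie where those of many other genes lie. In the authors' deposited tables, 159 other genes at 10 CPM or more in HepG2 were under -9 in H33. These genes had a median of -5.93 in H12 (SD 0.20; 5th to 95th percentile from -6.30 to -5.67), or 1.64% of the HepG2 level. Their median SE was 0.81 in H12 and 0.12 in H33. IGFBP1 and IGFBP3 fall inside that range in H12, and the SE of IGFBP1 was 1.39 in H12 and 0.10 in H33. The 12 hepatocyte and hepatoblast markers lie between -6.20 and -5.67 in H12 as well. Whether HepG2 RNA is present in the H12 libraries was not tested, so the H12 level of a gene in this range, IGFBP1 and IGFBP3 included, cannot be read as expression by H12 cells. The other members lay between -2.70 and 1.75 in H12, outside that range. The H12 values of SORL1, ENPP1, INPP5D, G6PC1 and IGF2BP1 lie inside it too. Those of IGFBP7, GRB14 and PPARGC1A lie outside it but within the full span of the 159 genes, from -6.54 to -5.32. The same limit therefore holds for them.

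The genes nearest to IGFBP1 in both fold changes and mean level were AGT (distance 0.65 log2 units), which encodes angiotensinogen, APOA2 (0.72), an apolipoprotein gene, and SELENOP (1.29), which encodes a selenium carrier. All 3 encode secreted plasma proteins of the liver, with fold changes from -11.60 to -10.54 in H33 and from -6.04 to -5.88 in H12 in the authors' deposited tables. This likeness rests on 3 values per gene, and the H12 fold changes lie in the range that many genes share.

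**Figure D2:**
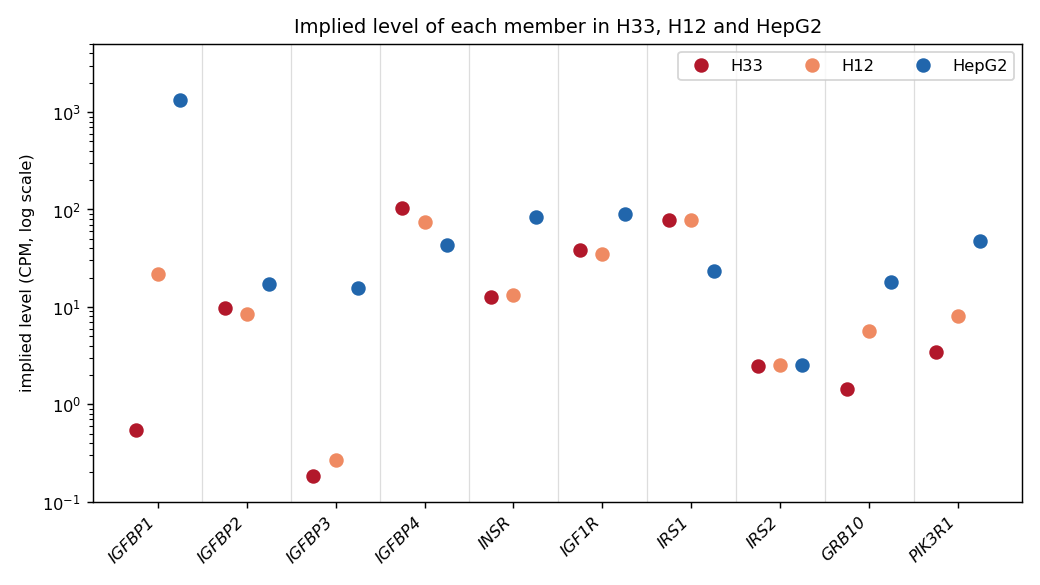
Implied level in CPM (log scale) of each member in H33 (dark red), H12 (orange) and HepG2 (blue), with 1 point per group because no values per library were used. HepG2 is the highest point for IGFBP1, IGFBP2, IGFBP3, INSR, IGF1R, GRB10 and PIK3R1 and the lowest for IGFBP4 and IRS1; the 3 points of IRS2 lie between 2.45 and 2.56 CPM.

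IGFBP2 and IGFBP4 changed less and in opposite directions. IGFBP2 (ENSG00000115457, chr2:216632828-216664436), a binding protein abundant in fetal life, had 9.64 CPM in H33 and 8.49 CPM in H12, against 17.3 CPM in HepG2. The authors' deposited tables gave -0.84 (SE 0.08, adjusted p = 2.56e-25) in H33 and -1.03 (SE 0.08, adjusted p = 3.61e-38) in H12, or 55.9% and 48.8% of the HepG2 level. IGFBP4 (ENSG00000141753, chr17:40443461-40457731), which sequesters IGFs until the protease PAPPA cleaves it, had 104 CPM in H33 and 73.9 CPM in H12, against 43.3 CPM in HepG2. It rose in the authors' deposited tables by 1.26 (SE 0.04, adjusted p = 4.95e-216) in H33 and 0.77 (SE 0.05, adjusted p = 4.25e-44) in H12.

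Among the binding proteins outside the 10 members, IGFBP6 rose and IGFBP7 fell in both clones. IGFBP6, which prefers IGF2 over IGF1, had an implied 202 CPM in H33 and 169 CPM in H12, against 1.22 CPM in HepG2, with log2 fold changes of 7.37 (SE 0.11) and 7.11 (SE 0.16) in the authors' deposited tables. IGFBP7, a low-affinity relative, was near the fitted floor in both clones, at 0.0120 CPM in H33 and 0.0352 CPM in H12, against 1.72 CPM in HepG2. A fold change to so low a level, here and below wherever a group is under 0.05 CPM, depends on the prior count. The implied level is computed from the fold change and depends on it too. Levels are given in these cases, and a value under 0.05 CPM shows only that the gene was near the floor. Per kilobase of merged exons, which allows levels of different genes to be set side by side, the 6 listed binding protein genes summed to 199 CPM per kb in H33 and 174 in H12, against 840 in HepG2, or 23.7% and 20.7% of the HepG2 sum. IGFBP6 made up 75.2% of that sum in H33 and 72.0% in H12, against 0.108% in HepG2. IGFBP1 made up 0.165% in H33 and 7.56% in H12, against 96.6% in HepG2; the H12 share rests on the residual level described above. IGFBP4 made up 23.6% in H33 and 19.3% in H12, against 2.34% in HepG2. IGFBP5 was not listed for either clone.

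**Figure D3:**
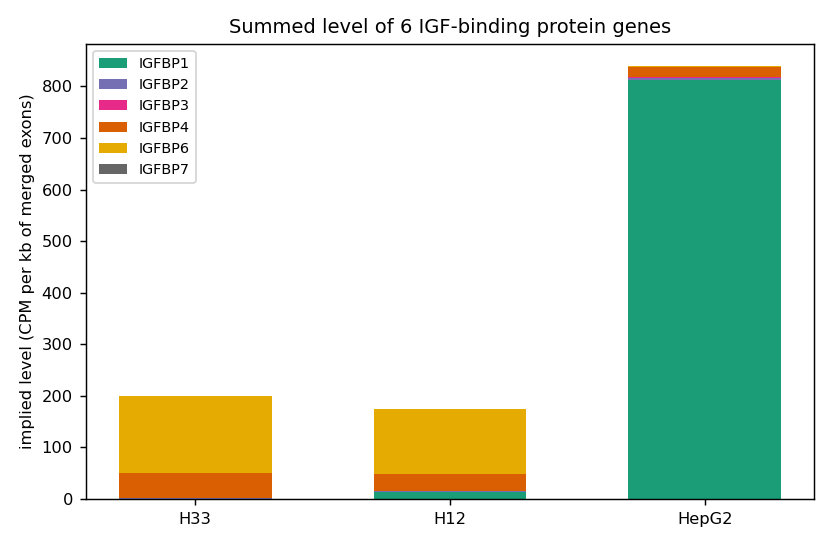
Implied levels of 6 IGF-binding protein genes, stacked, in CPM per kilobase of merged exons, for H33, H12 and HepG2. The HepG2 bar is almost all IGFBP1, while the shorter H33 and H12 bars are mostly IGFBP6 with IGFBP4 below it.

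Genes that act on the binding proteins also differed. HTRA1, a secreted serine protease that cleaves IGF-binding proteins, rose by 7.20 in H33 (SE 0.11) and by 7.14 in H12 (SE 0.13) in the authors' deposited tables. PAPPA, the protease of IGFBP4, passed the threshold in H33 at 0.49 (SE 0.19, adjusted p = 0.0135) and missed it in H12 at 0.32 (SE 0.18, adjusted p = 0.0883) in the authors' deposited tables, and the difference between the clones did not pass its own test (adjusted p = 0.977). The stanniocalcin genes, whose products inhibit PAPPA, moved apart. In the authors' deposited tables STC1 rose by 3.81 in H33 (SE 0.24) and by 5.80 in H12 (SE 0.15). In the same tables STC2 stood at -7.69 (SE 0.13) in H33 and -6.33 (SE 0.92) in H12. The H12 value of STC2 lies within the full span of the 159 genes above, from -6.54 to -5.32, so the limit given there holds for it too. Of the 15 genes on the list of binding proteins and their partners, 11 were listed; H33 had 5 higher and 6 lower, while H12 had 4 higher, 6 lower and 1 not past the threshold.

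Of the ligands, IGF2 was listed and fell steeply. IGF2, the fetal growth factor, had an implied 115 CPM in H33 and 127 CPM in H12, against 2429 CPM in HepG2 (in the H33 table). The authors' deposited tables gave -4.41 (SE 0.05, adjusted p listed as 0) in H33 and -4.27 (SE 0.42, adjusted p = 1.95e-23) in H12. The gene overlaps the readthrough gene INS-IGF2, between which the authors' counting could split reads, so the value is uncertain. INS, IGF1, INSL3 and RLN2 were not listed for either clone. Of the 3 genes for IGF2 mRNA-binding proteins, IGF2BP1 stood at -9.96 (SE 0.07) in H33 and -5.89 (SE 1.19) in H12, IGF2BP2 at -0.93 (SE 0.03) and -0.90 (SE 0.08), and IGF2BP3 at 1.10 (SE 0.04) and 1.17 (SE 0.15) in the authors' deposited tables, all past the threshold.

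Both receptor genes had lower RNA levels in the clones, INSR more so than IGF1R. INSR (ENSG00000171105, chr19:7112255-7294034) had 12.5 CPM in H33 and 13.1 CPM in H12, against 84.6 CPM in HepG2. Its log2 fold change in the authors' deposited tables was -2.75 (SE 0.05, adjusted p listed as 0) in H33 and -2.70 (SE 0.11, adjusted p = 5.10e-138) in H12, which leaves 14.9% and 15.4% of the HepG2 level. IGF1R (ENSG00000140443, chr15:98648539-98964530) had 38.1 CPM in H33 and 35.0 CPM in H12, against 90.7 CPM in HepG2. Its log2 fold change in the authors' deposited tables was -1.25 (SE 0.05, adjusted p = 2.91e-162) in H33 and -1.38 (SE 0.08, adjusted p = 2.53e-60) in H12. Annotated antisense genes overlap IGF1R and IRS2, and since the use of strand is not given in the sources used here, their reads cannot be told apart from those of the receptor and the substrate.

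Per kilobase of merged exons, INSR stood at 1.20 CPM per kb in H33 and 1.26 in H12, against 8.10 in HepG2, and IGF1R at 2.73 in H33 and 2.51 in H12, against 6.50 in HepG2. By this measure the implied order of the receptors had IGF1R above INSR in both clones and INSR above IGF1R in HepG2. Without division by length, IGF1R lay above INSR in HepG2 too, at 90.7 against 84.6 CPM. The order was not tested, and in HepG2 it depends on that division. Other receptor genes included IGF2R, which clears IGF2 into lysosomes and fell, at -1.02 (SE 0.04) in H33 and -0.99 (SE 0.18) in H12 in the authors' deposited tables. SORL1, a sorting receptor that returns INSR to the cell surface, stood at -7.02 (SE 0.07) in H33 and -5.81 (SE 0.74) in H12, and CAV1, the caveolar coat protein that associates with INSR, rose by 3.41 and 3.49 (SE 0.11 each) in the authors' deposited tables.

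IRS1 rose in both clones while IRS2 was not past the threshold in either. IRS1 (ENSG00000169047, chr2:226731317-226799759) had 77.2 CPM in H33 and 78.4 CPM in H12, against 23.3 CPM in HepG2, or 331% and 337% of the HepG2 level. In the authors' deposited tables its log2 fold change was 1.73 (SE 0.04, adjusted p listed as 0) in H33 and 1.75 (SE 0.06, adjusted p = 7.18e-211) in H12. IRS2 (ENSG00000185950, chr13:109752698-109786568), its relative and the main hepatic partner of INSR alongside it, had 2.45 CPM in H33 and 2.51 CPM in H12, against 2.56 CPM in HepG2. The log2 fold changes in the authors' deposited tables were -0.06 (95% interval -0.31 to 0.19, adjusted p = 0.652) in H33 and -0.03 (95% interval -0.27 to 0.21, adjusted p = 0.804) in H12. Per kilobase of merged exons IRS1 stood at 7.76 CPM per kb in H33 and 7.87 in H12, against 2.34 in HepG2, and IRS2 between 0.302 and 0.315 in all 3 lines.

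Of the other 14 substrate and adaptor genes on the list, 13 were listed, with 5 higher and 8 lower in each clone. CBLB, a ubiquitin ligase, fell, at -4.17 in H33 (SE 0.10) and -3.95 in H12 (SE 0.13), and so did GAB2, a docking protein, at -2.86 (SE 0.08) and -2.98 (SE 0.14) in the authors' deposited tables. DOK1, another docking protein, rose by 3.26 in H33 (SE 0.17) and by 3.18 in H12 (SE 0.15), and SH2B2, an adaptor that binds INSR, by 2.45 (SE 0.29) and 2.11 (SE 0.26) in the authors' deposited tables.

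The bases just before the start site are shown for 4 members with 1 start each in the RefSeq table (GRCh38.p14): INSR, which fell, IGFBP4 and IRS1, which rose, and IRS2, which was not past the threshold. IGFBP3 and IGF1R, which fell and also have 1 start each, are not shown. Each run is the 250 bases upstream of the start, 5′ to 3′ on the strand of the gene. Capitals mark matches, on either strand, to the GC box GGGCGG bound by SP1 family factors, the TATA box TATAAA or TGTTTTG, the core of the insulin response element of IGFBP1.
INSR (chr19:7294415-7294664, minus strand): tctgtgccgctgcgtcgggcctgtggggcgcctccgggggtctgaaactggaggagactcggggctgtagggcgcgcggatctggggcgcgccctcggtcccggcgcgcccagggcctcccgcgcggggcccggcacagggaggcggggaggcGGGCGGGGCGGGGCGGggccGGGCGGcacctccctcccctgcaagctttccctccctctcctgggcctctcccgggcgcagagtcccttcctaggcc
IGFBP4 (chr17:40443200-40443449, plus strand): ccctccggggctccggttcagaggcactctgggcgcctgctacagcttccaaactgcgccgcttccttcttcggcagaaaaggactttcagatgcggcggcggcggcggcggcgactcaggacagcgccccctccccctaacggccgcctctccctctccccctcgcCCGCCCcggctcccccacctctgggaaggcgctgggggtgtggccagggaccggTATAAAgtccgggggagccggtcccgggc
IRS1 (chr2:226799821-226800070, minus strand): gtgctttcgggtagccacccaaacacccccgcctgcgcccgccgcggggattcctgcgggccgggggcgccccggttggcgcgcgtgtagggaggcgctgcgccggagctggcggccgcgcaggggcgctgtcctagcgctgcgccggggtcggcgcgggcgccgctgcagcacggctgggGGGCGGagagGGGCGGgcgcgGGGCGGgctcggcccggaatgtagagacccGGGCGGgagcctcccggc
IRS2 (chr13:109786584-109786833, minus strand): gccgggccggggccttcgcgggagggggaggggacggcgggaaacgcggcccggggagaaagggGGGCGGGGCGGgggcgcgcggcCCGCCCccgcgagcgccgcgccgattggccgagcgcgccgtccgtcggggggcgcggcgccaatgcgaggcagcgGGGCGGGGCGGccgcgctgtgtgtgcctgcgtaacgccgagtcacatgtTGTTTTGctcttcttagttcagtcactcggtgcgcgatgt
The window of INSR held 4 GC boxes, 3 of which overlap, that of IRS1 held 4, and that of IRS2 held 5. IGFBP4 held 1 GC box and a TATA box, which starts 29 bases before the start site. GGGCGG occurs in 42.6% of 35116 windows of this length in the table, TATAAA in 10.7%, and TGTTTTG, here seen in IRS2, in 4.30%. These matches describe letters and not sites in use. Neither TGTTTAC, the core bound by FOXO factors (2.98% of windows), nor TGACGTCA, the full cAMP response element (1.65%), nor the shorter element TGACG (21.2%; it lies within the full element) is in these 4 windows. Of the members, 9 had a promoter entry, and that of IGFBP1 is not among them. Among the windows not shown, GRB10 held TGACG on the minus strand, at 184 to 180 and at 20 to 16 bases before a start.

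GRB10 and PIK3R1 fell in both clones and further in H33. GRB10 (ENSG00000106070, chr7:50590063-50793462), which binds activated INSR and IGF1R and dampens their signal, had 1.45 CPM in H33 and 5.69 CPM in H12, against 18.1 CPM in HepG2. The authors' deposited tables gave -3.62 (SE 0.11, adjusted p = 6.32e-250) in H33 and -1.69 (SE 0.10, adjusted p = 1.79e-62) in H12, or 8.12% and 31.1% of the HepG2 level. PIK3R1 (ENSG00000145675, chr5:68215720-68301821), which stabilises the catalytic subunit and links it to phosphorylated IRS proteins, had 3.48 CPM in H33 and 8.10 CPM in H12, against 47.0 CPM in HepG2. Its log2 fold change in the authors' deposited tables was -3.74 (SE 0.07, adjusted p listed as 0) in H33 and -2.55 (SE 0.11, adjusted p = 4.38e-119) in H12, or 7.46% and 17.1% of the HepG2 level.

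The paralogs of GRB10 were lower in both clones as well, while the relatives of PIK3R1 moved in both directions. GRB14, a paralog of GRB10 that inhibits INSR, was near the fitted floor in the clones, at 0.0118 CPM in H33 and 0.0467 CPM in H12, against 2.08 CPM in HepG2 (in the H33 table). GRB7, the third paralog, fell, at -2.58 in H33 (SE 0.06) and -2.92 in H12 (SE 0.11), in the authors' deposited tables. ENPP1, a membrane enzyme that inhibits INSR, stood at -8.02 (SE 0.07) and -5.69 (SE 0.78), while SOCS3, a feedback inhibitor of cytokine and insulin signalling, rose by 3.80 (SE 0.08) and 3.59 (SE 0.10) in the authors' deposited tables. Of the 14 inhibitor genes besides GRB10, 6 were higher, 4 lower and 4 not past the threshold in H33, and 7 were higher, 4 lower and 3 not past it in H12.

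PIK3R3, another regulatory subunit of PI3K, had 133 CPM in H33 and 108 CPM in H12, against 8.98 CPM in HepG2, and rose by 3.88 (SE 0.05) and 3.59 (SE 0.07) in the authors' deposited tables. PIK3R2, the remaining relative, named after its value was seen, fell, at -1.10 in H33 and -1.16 in H12 (SE 0.06 each), in the authors' deposited tables. Among the lipid phosphatases that undo the PI3K product, INPP4B rose by 6.46 in H33 and by 6.53 in H12 (SE 0.13 each), and INPP5D, also known as SHIP1, stood at -7.60 (SE 0.10) and -5.75 (SE 0.68) in the authors' deposited tables. PIK3IP1, a membrane inhibitor of PI3K, fell, at -3.09 in H33 (SE 0.14) and -3.47 in H12 (SE 0.15) in the authors' deposited tables. Of 11 PI3K and phosphatase genes besides PIK3R1, 6 were higher and 5 lower in each clone.

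Downstream, most genes of the AKT and mTOR branch lay close to HepG2. Of its 25 genes, 12 were higher, 12 lower and 1 not past the threshold in each clone, with medians of -0.11 in H33 and -0.12 in H12 beside -0.02 and -0.03 for all genes. TBC1D4, an AKT substrate in glucose transport, fell, at -2.71 in H33 (SE 0.04) and -2.54 in H12 (SE 0.13) in the authors' deposited tables. Its relative TBC1D1 fell, at -1.97 (SE 0.05) in H33 and -1.86 (SE 0.08) in H12, and so did PHLPP1, a phosphatase that acts on AKT, at -2.16 (SE 0.05) and -2.12 (SE 0.07) in the authors' deposited tables. AKT1 and AKT2, named after their values were seen, stood at 0.34 and 0.51 in H33 and 0.29 and 0.51 in H12 in the authors' deposited tables, all past the threshold.

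FOXO factors and genes known to answer to insulin were mixed. Besides IGFBP1 and IRS2, 19 were listed, with 6 higher and 13 lower in each clone (medians -1.47 in H33 and -1.60 in H12). FOXO1, the main FOXO factor of hepatocytes, named after its value was seen, fell, at -3.27 in H33 (SE 0.07) and -3.08 in H12 (SE 0.16), in the authors' deposited tables. The gluconeogenic genes G6PC1 and PPARGC1A, which insulin represses as it does IGFBP1, fell too: G6PC1 had 0.0304 CPM in H33 and 1.54 CPM in H12, against 96.6 CPM in HepG2, and PPARGC1A had 0.0554 CPM in H33 and 1.09 CPM in H12, against 48.3 CPM in HepG2 (in the H33 table). PDK4, a mitochondrial kinase gene that insulin also represses, moved the other way, with 44.2 CPM in H33 and 40.2 CPM in H12, against 0.0347 CPM in HepG2, as did FOXO6, with 2.16 CPM in H33 and 1.51 CPM in H12, against 0.0139 CPM in HepG2. Over all lists, 96 of 109 pathway genes outside the members were listed, and 41 were higher, 50 lower and 5 not past the threshold in each clone, a share called that is near that of all genes. Their medians were -0.26 in H33 and -0.28 in H12.

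**Figure D4:**
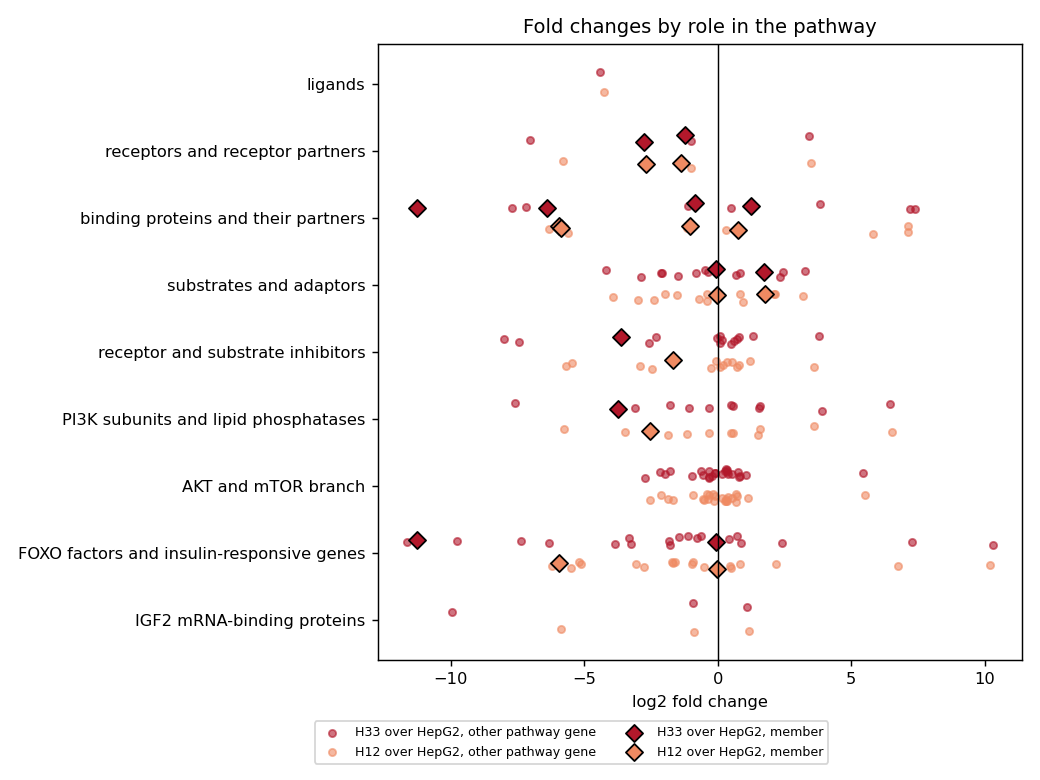
Log2 fold change over HepG2 of every listed pathway gene by role, for H33 (dark red) and H12 (orange); diamonds are the 10 members and circles other genes of the list, and a gene on 2 lists is drawn in both. The binding proteins and the insulin-responsive genes spread widest, while most genes of the AKT and mTOR branch lie close to 0.

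The clones were set against each other through the difference of their fold changes, H33 minus H12. An adjusted p of 0.05 was passed by 4 members, and by 5.40% of the 14765 shared genes. GRB10 differed by -1.94 (SE 0.15, adjusted p = 3.64e-36) and PIK3R1 by -1.19 (SE 0.13, adjusted p = 2.04e-17), both lower in H33. IGFBP4 differed by 0.49 (SE 0.07, adjusted p = 1.04e-10) and was higher in H33. IGFBP1 differed by -5.31 (SE 1.39, adjusted p = 0.00416), with the H12 value in the range shared with other genes, as given above. Differences of the other 6 did not pass the test, with 95% intervals of -0.02 to 0.42 for IGFBP2, -1.69 to 0.62 for IGFBP3, -0.28 to 0.18 for INSR, -0.05 to 0.32 for IGF1R, -0.16 to 0.12 for IRS1 and -0.38 to 0.32 for IRS2. The 3 lines thus ranked H33, H12, HepG2 from low to high for GRB10 and PIK3R1 and from high to low for IGFBP4, with each step past its test. For INSR, IGF1R, IGFBP2, IGFBP3 and IRS1 the order of the clones was not resolved, and for IRS2 that of all 3 lines.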

How the data were processed

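The labels describe poly-A RNA from 18 libraries, grouped by their labels into H33, H12 and HepG2 with 6 each. Per the submitters' processing notes, the tools were STAR 2.5.3a, edgeR 3.28.0, RSEM and bcl2fastq 2.20.0.422, listed without role or order, and the build was GRCh38.p10. Per the file headers, the deposited columns of each gene are its log2 fold change and log2 CPM, a likelihood ratio (a score) and a plain and an adjusted p-value, from an edgeR generalized linear model. Strand use, filter, scaling and dispersion settings: none is given in the sources used here. The deposited adjusted p-values were used as they stand, with a threshold of 0.05. No table with counts per library was used, so the test is the authors' and not a new count fit. Some genes have a p-value listed as 0.

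From the deposited values, the SE was computed as the absolute log2 fold change over the root of the likelihood ratio, and levels from the mean CPM and fold change for groups of equal size. HepG2 levels of the members implied by both tables differed by at most 0.0397 log2 units, and their mean is printed. The test of H33 minus H12 was two-sided and normal, Benjamini-Hochberg adjusted over the shared genes; summing the squared errors counts the shared HepG2 libraries in both, which widens the SE of a difference, while an SE implied near the floor can be too small. The test of H33 minus H12 was also run on simulated data, with independent noise drawn from the implied SEs. That run cannot show whether those SEs are right, and it leaves out the shared HepG2 libraries. Positions and exon lengths come from GENCODE 29 (GRCh38), promoter windows from RefSeq. Members and lists were chosen with earlier results of these data known. Named genes are the members, the listed ligands, receptors and binding proteins, and up to 4 genes of each other list with the largest mean absolute change among those called in both clones; for the member that moved most, also the 3 genes nearest in Euclidean distance over both fold changes and the mean log2 CPM. A gene that this rule also names is not reported here. Alternatives were a threshold of 0.01, a minimum absolute log2 fold change of 1, a minimum of 1 log2 CPM, Bonferroni adjustment, centring on the median of all genes, a floor of 0.1 CPM and another SE for the difference. Software was pandas 2.3.3, scipy 1.17.1, matplotlib 3.10.9 and numpy 2.4.6 under Python 3.11.15.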

Additional observations from a re-analysis of the deposited data

Results flagged for a closer look

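Differences between the clones that passed their own test are listed here as H33 minus H12 in log2 fold change. Among the members these were IGFBP1 (-5.31), GRB10 (-1.94), PIK3R1 (-1.19) and IGFBP4 (0.49). GRB10, PIK3R1 and IGFBP4 have an SE of at most 0.11 in each clone, and their H12 values lie outside the range near -5.93 that many genes share in H12; IGFBP1 has an SE of 1.39 in H12 and lies inside it.

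Of the other pathway genes named, these differed too: STC1 (-1.99, adjusted p = 1.66e-10), which rose less in H33, and PIK3R3 (0.29, adjusted p = 0.0222), which rose more in H33. G6PC1 (-5.64, adjusted p = 9.26e-08), PPARGC1A (-4.26, adjusted p = 1.86e-08) and IGF2BP1 (-4.08, adjusted p = 0.0155) were lower in H33, with H12 values between -5.99 and -5.51, at or near the range many genes share. G6PC1 was at 0.0304 CPM in H33, so the size of its difference depends on the prior count. IGFBP7 (-1.57, adjusted p = 0.0369) and GRB14 (-1.99, adjusted p = 0.00260) were under 0.05 CPM in both clones, where a fold change depends on the prior count. Their H12 values, -5.60 and -5.47, also lie near the range many genes share.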

How the results depend on the processing

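The count of members called was 9 in each clone with an adjusted p under 0.01, with at least 1 log2 CPM and after centring, and 8 where a change of 1 log2 unit or more was asked for, which IGFBP2 in H33 (-0.84) and IGFBP4 in H12 (0.77) did not reach. With Bonferroni adjustment it was 9 in H33 and 8 in H12, where IGFBP1 was lost. The 4 members that differed between the clones passed under all 4 alternatives for that test, while the number of all such genes was 797, or 1363 with the larger SE in place of the summed one. Pathway genes called outside the members numbered 91 in each clone, and 54 in H33 and 52 in H12 at 1 log2 unit or more. The summed IGFBP level without division by length, chosen after seeing the data, was 22.2% of HepG2 in H33 and 19.2% in H12. No direction of a member's called fold change reversed under these alternatives. No paired analysis was possible because the deposited tables hold no values per library, and leaving out single replicates was not run for the same reason. Depth per library is unknown, so no counting limit could be set for low levels.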
